A study of Mus musculus with 36 samples.

Results

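A set of 10 genes that are widely used to read out stress of the endoplasmic reticulum (ER) and the integrated stress response was followed through the differentiation of brown pre-adipocytes. The genes are Hspa5, Hsp90b1, Dnajb9, Herpud1, Xbp1, Ddit3, Atf4, Trib3, Chac1 and Asns. They were taken as a named list by their GENCODE M21 symbols, and make up 10 of the 55536 genes counted in each library. All 10 passed the filter on low counts, and their counts ran from 45 for Trib3 in its lowest library to 50480 for Hspa5 in its highest.

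The cells were murine brown pre-adipocytes in which the retinoid X receptor alpha gene, Rxra, had been disrupted with Cas9. There were 2 monoclonal Rxra-/- lines, clone 48 and clone 66, both obtained from a clonal WT line, and every library in the series comes from such a knockout line. Each clone had been given back Rxra from a pBabe Hygro retroviral vector, either in its normal form (RxraWT, here WT) or with the serine at residue 22 replaced by alanine (S22A, RxraSA, here SA), which cannot be phosphorylated at that site. Total RNA was sequenced at day 0, at confluence, and at days 2 and 6 of differentiation, with 3 libraries for each of the 12 combinations of clone, genotype and day and 36 libraries in all. Insulin and triiodothyronine were in the medium throughout. Dexamethasone, isobutylmethylxanthine and indomethacin were added from day 0 to day 2 only, so that time and the presence of these inducers cannot be told apart. Clone 48 was sequenced in library pool 1 and clone 66 in library pool 2, so clone and pool cannot be told apart either. The series design calls the 3 libraries of a combination technical replicates, whereas the study's methods speak of independent replicates. P-values therefore measure the spread between these libraries, which may be technical in part.

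The ER folds secreted and membrane proteins, and when unfolded proteins build up there, 3 sensors are known to respond. ATF6 and IRE1 act on the promoters of chaperone genes, the latter through a spliced form of Xbp1 mRNA. PERK phosphorylates the translation factor eIF2alpha, as do GCN2, PKR and HRI for other stresses, and this slows protein synthesis while favouring translation of Atf4. ATF4 then switches on genes for amino acid supply, tRNA charging, redox control and, through Ddit3, cell death. Differentiating adipocytes expand their ER and secrete adipokines, and the unfolded protein response has been tied to adipogenesis. Gene-level counts see neither the splicing of Xbp1 nor the translation of Atf4.

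Promoter sequences are shown because the chaperone and ATF4 branches of the pathway are known to act through different letters. RefSeq windows from 250 bases before to 50 bases after the transcription start (GRCm38.p6) were found for all 10 genes. They were searched on both strands for 4 motifs, and no match to one motif overlapped a match to another. The ER stress element, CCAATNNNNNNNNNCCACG, which ATF6 binds together with NF-Y, was present in 0.119% of 32851 windows of this length and in those of Hspa5 and Hsp90b1. Its shorter relative ERSE-II, ATTGGNCCACG, was in 0.0365% of windows and in that of Herpud1. The C/EBP-ATF response element core, TGATGNAA, which ATF4 dimers bind, was in 3.97% of windows and in those of Herpud1, Trib3, Chac1 and Asns. The UPRE core, TGACGTGG, which spliced XBP1 binds, was in 0.676% of windows and in none of the 10. A match is a description of the letters and not a proven site. In the upstream stretches and site windows that follow, written 5′ to 3′ on the gene's strand, capitals mark the motifs. Hsp90b1 has the ER stress element on each strand, Herpud1 has a C/EBP-ATF element and then ERSE-II, and Chac1 has a C/EBP-ATF element. For Hspa5 and Asns, whose matches lie inside GENCODE's first exon, and for Trib3, whose match lies just past the RefSeq start, only the site is given.
Hsp90b1, chr10:86705510-86705694, minus strand: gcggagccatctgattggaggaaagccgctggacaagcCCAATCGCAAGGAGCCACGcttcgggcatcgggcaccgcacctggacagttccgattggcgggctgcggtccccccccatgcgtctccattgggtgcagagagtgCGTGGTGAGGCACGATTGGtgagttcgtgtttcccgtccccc
Herpud1, chr8:94386179-94386428, plus strand: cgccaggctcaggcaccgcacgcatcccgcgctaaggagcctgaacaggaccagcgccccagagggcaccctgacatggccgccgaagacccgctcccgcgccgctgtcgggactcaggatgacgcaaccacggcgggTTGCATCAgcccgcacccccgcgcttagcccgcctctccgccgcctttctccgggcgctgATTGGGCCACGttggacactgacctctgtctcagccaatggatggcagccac
Chac1, chr2:119350992-119351228, plus strand: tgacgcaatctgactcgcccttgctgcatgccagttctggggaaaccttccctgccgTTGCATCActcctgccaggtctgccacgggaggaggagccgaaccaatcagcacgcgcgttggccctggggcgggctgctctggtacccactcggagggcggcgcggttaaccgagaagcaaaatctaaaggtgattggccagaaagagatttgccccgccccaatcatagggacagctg
Hspa5, chr2:34772020-34772048, plus strand: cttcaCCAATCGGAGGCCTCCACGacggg
Trib3, chr2:152344028-152344057, minus strand: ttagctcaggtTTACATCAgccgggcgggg
Asns, chr6:7693214-7693243, minus strand: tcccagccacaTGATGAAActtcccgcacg

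The libraries held 11351078 to 24349263 counted read pairs, with a median of 18338726. Replicate 1 of clone 48, SA, day 0 was the shallowest and stood apart by its rRNA share of 1.21% of counts, and results are given without it where that changed a call. Counts of Rxra pool the retroviral transcript with any left from the mutated gene, so they do not check the genotype, and the log2 difference of SA from WT was -0.07, -0.03 and 0.03 on days 0, 2 and 6, with an adjusted p of 1.0 each time. Summed over 7 adipocyte markers, the level was 126 to 232 CPM (counts scaled to library size) at day 0, 3914 to 6739 at day 2 and 6722 to 10834 at day 6, and all 7 rose from day 0 to both later days. All 4 of the 6 pre-adipocyte markers that could be tested fell from day 0 to both later days. Of 6 brown adipocyte markers, the 3 that could be tested rose from day 0 to both later days, with Ppargc1a, a coactivator of mitochondrial genes, reaching 508 counts, while Ucp1, the uncoupling protein that defines brown fat, never exceeded 5 counts in a library. Markers of other cells summed to at most 11.5 CPM for leukocytes, 2.43 for endothelium and 11.8 for skeletal muscle. Most of the leukocyte sum came from Cd68, at up to 11.3 CPM, and most of the muscle sum from Acta1, at up to 11.6. Both had higher medians at day 6 than at day 2 in both clones. Csf1r reached 20 and Vwf 25 counts in a library. There was at most 1 count of Ptprc, Adgre1 or Cdh5 and no count of Myod1 in any library. The share of counts from the mitochondrial chromosome was 1.11% to 3.78% at day 0, 1.25% to 4.86% at day 2 and 1.96% to 9.09% at day 6. Bulk libraries cannot tell fewer cells of a kind from less RNA per cell.

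Per kilobase of exon, the ER chaperones were the most abundant of the 10 in the undifferentiated cells and at day 2 Atf4 and Asns came up beside them. Levels are given as CPM divided by exon length in kilobases (RPKM), over 12 libraries. At day 0, Hsp90b1 had a median of 283 RPKM and Hspa5 of 224, their ranges overlapped, and both lay above every library's value of Atf4, whose median was 87.6 RPKM. Herpud1, Asns and Ddit3 followed with medians of 33.0, 31.3 and 24.7 RPKM and overlapping ranges. Xbp1, at 18.8 RPKM, overlapped Ddit3 but stood clear of the lowest group, Chac1, Trib3 and Dnajb9, with medians of 3.66, 3.07 and 2.97 RPKM. At day 2 the order was headed by Atf4 at 352 RPKM, with Hspa5 at 331, Hsp90b1 at 250 and Asns at 192 RPKM, and each of these overlapped the next. Ddit3 (98.9 RPKM) overlapped Asns from below and stood clear of Xbp1 at 41.3 RPKM. Trib3, Dnajb9, Herpud1 and Chac1 lay between 26.7 and 37.5 RPKM in their medians. At day 6 Hspa5 came first with 374 RPKM, and each gene's range overlapped that of the next one down the order, to Chac1 at 12.6 and Dnajb9 at 10.7 RPKM. The 10 genes together took 0.274% of all counts at day 0, 0.407% at day 2 and 0.379% at day 6, as medians of 12 libraries.

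**Figure D1:**
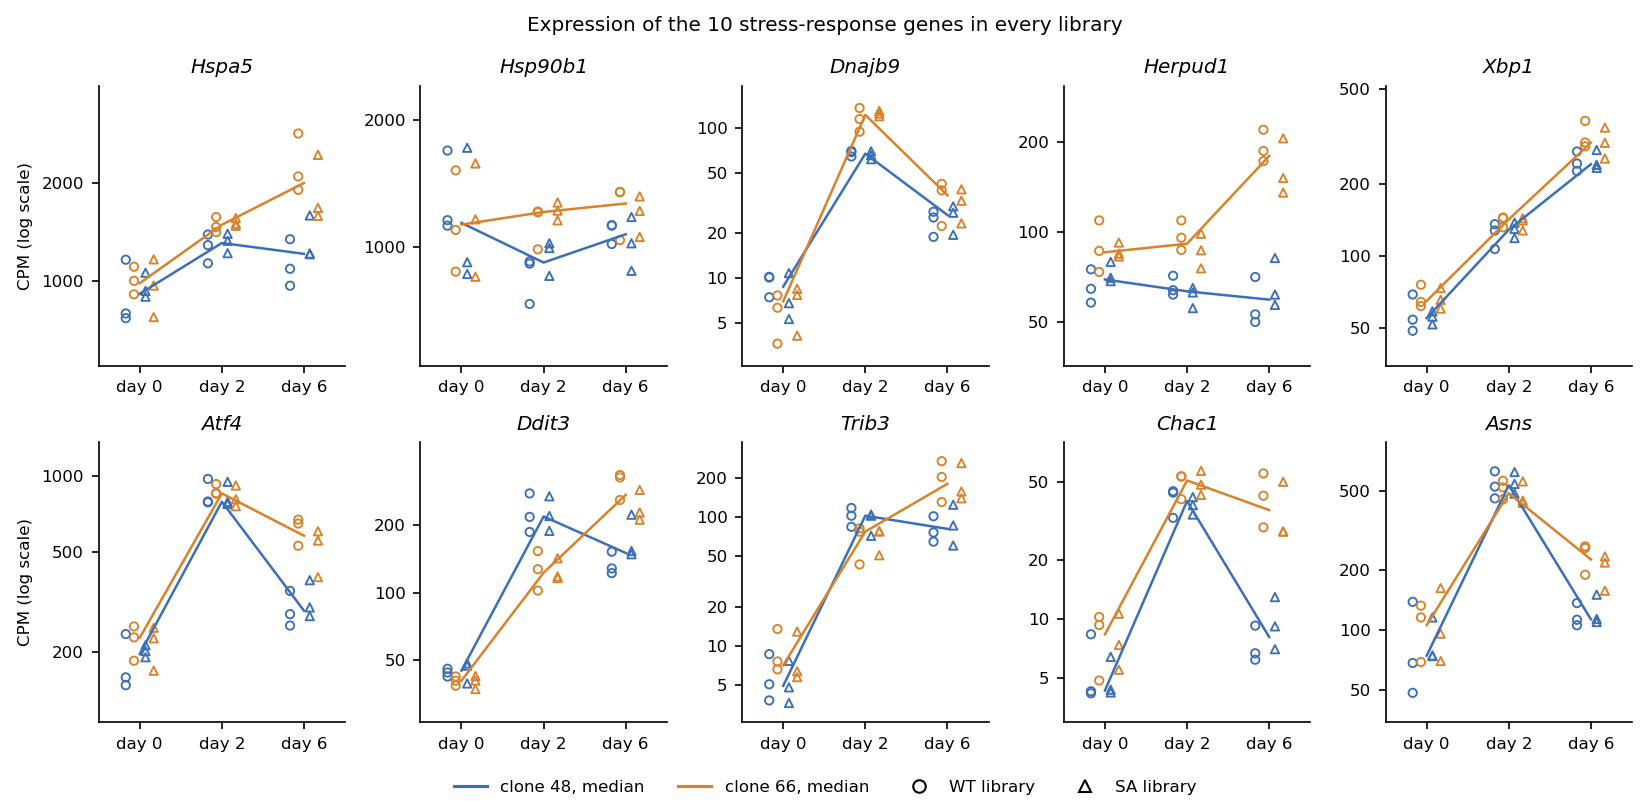
CPM of each gene (log scale, each panel with its own range) in all 36 libraries at days 0, 2 and 6. Circles are WT and triangles SA libraries, blue is clone 48 and orange clone 66, and lines join the medians of the 6 libraries of a clone. Dnajb9, Atf4, Chac1 and Asns peak at day 2, Xbp1 climbs at each step, and at day 6 the clones do not overlap for Herpud1, Atf4, Trib3, Chac1 and Asns. The share of all genes without overlap between clones or between days is not given.

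From day 0 to day 2, 8 of the 10 genes rose and none fell. The largest increases were those of Dnajb9, Trib3 and Chac1, at 12.1-fold, 11.9-fold and 6.92-fold, while the abundant ER chaperone Hspa5 rose 1.44-fold and Hsp90b1 was not called. In the same comparison 73.3% of the 16723 genes tested were called by edgeR's quasi-likelihood test at a Benjamini-Hochberg adjusted p under 0.05, 35.8% as higher and 37.5% as lower, and the median log2 fold change was 2.06 over the 10 genes and -0.02 over all genes tested. From day 0 to day 6, 9 of the 10 rose and none fell, beside 68.3% of all genes called, 32.9% higher and 35.4% lower, and the medians were 1.33 and -0.03. Between day 2 and day 6 the list split: 3 rose (Herpud1, Xbp1, Trib3) and 4 fell (Dnajb9, Atf4, Chac1, Asns), beside 62.0% of all genes called, 31.9% higher and 30.1% lower. Within a clone and day, same-numbered WT and SA libraries deviated together, so p-values that take them as separate are too small. With the counts of each such pair summed (a choice made after seeing the data), 8, 9 and 6 of the 10 were called in these 3 comparisons. Beside them 64.3%, 57.2% and 50.8% of the 17851 genes then tested were called. The call lost was that of Trib3 after day 2. By edgeR the adjusted p was then 0.00284 for Hspa5 at day 2 against day 0. With library sizes alone in place of TMM factors, the median of all genes shifted from -0.02 to -0.27 at day 2 and from -0.03 to -0.22 at day 6 against day 0, and the share of calls that were higher from 48.9% to 33.6% and from 48.2% to 34.9%. With library sizes alone Hsp90b1 (log2 -0.49) and Herpud1 (-0.30) were called lower at day 2 and Hsp90b1 (-0.28) at day 6, values to be read against these shifted medians, near which Herpud1 at day 2 and Hsp90b1 at day 6 lie.

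**Figure D2:**
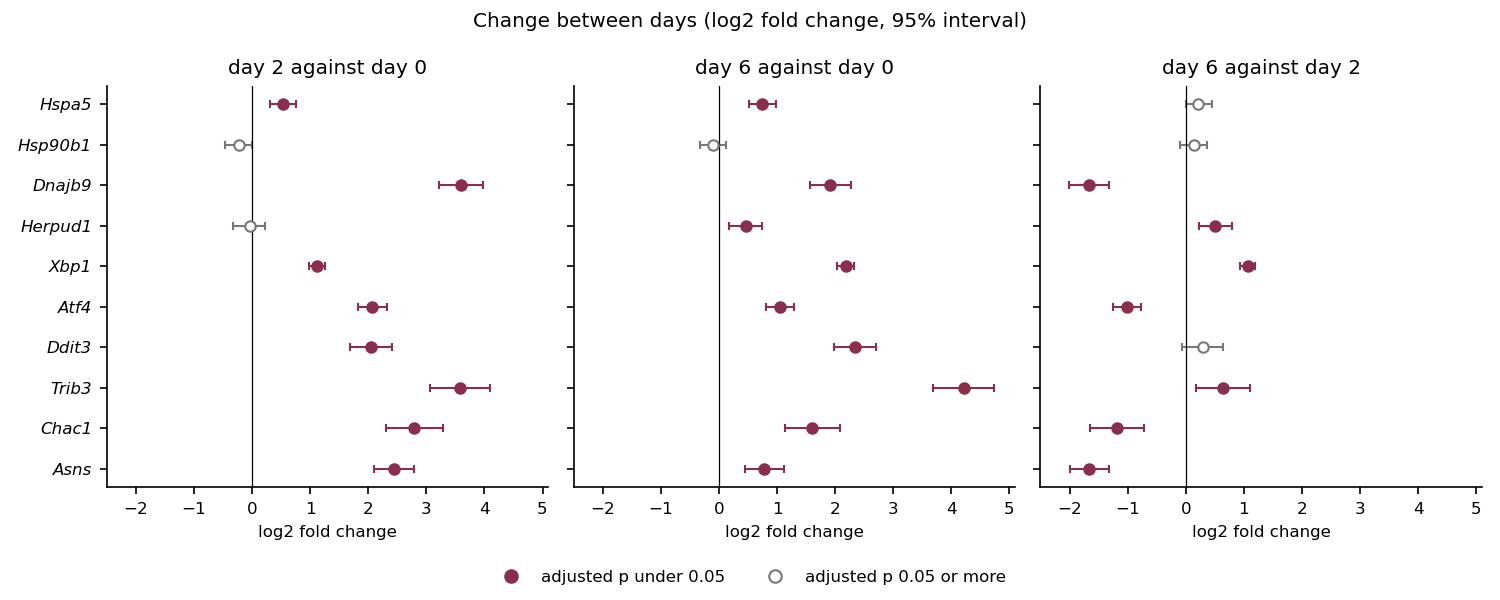
Log2 fold change of each gene between days, averaged over both genotypes and adjusted for clone, with 95% intervals over 36 libraries. Filled points have an adjusted p under 0.05. At day 2 only Hsp90b1 and Herpud1 have open points, and at day 6 against day 2 4 filled points lie left of 0 and 3 right of it.

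Among the ER chaperones, Hspa5 (BiP), the main Hsp70 of the ER and the factor that holds the sensors inactive, ran from 766 to 1162 CPM at day 0 (median 947), from 1130 to 1568 at day 2 (median 1401) and from 964 to 2834 at day 6 (median 1583). The day 0 and day 2 ranges overlapped at their edges, and the day 6 values spread over both. The increase was 1.44-fold at day 2 (log2 0.53, SE 0.111, adjusted p = 6.9e-05 by edgeR) and was seen in 6 of 6 combinations of clone and replicate number. Against day 0, it was 1.68-fold at day 6 (log2 0.75, SE 0.112, adjusted p = 3.37e-07), in 5 of 6 combinations. Hsp90b1 (GRP94), the Hsp90 of the ER and chaperone of integrins and Toll-like receptors, had medians of 1140, 1007 and 1125 CPM on the 3 days. Its widest range was at day 0, from 850 to 1717 CPM, where replicate 3 of both clones and genotypes lay at 1518 CPM or more and every other library at 1162 or less. The log2 difference of day 2 from day 0 was -0.23 (95% interval -0.47 to -0.00, adjusted p = 0.0652), and that of day 6 from day 0 was -0.10 (-0.33 to 0.13). The day 2 value passed the threshold without clone 66 replicate 1 (log2 -0.33, adjusted p = 0.0102), without clone 66 replicate 2 (-0.31, 0.0435) and without the shallow library (-0.26, 0.0394), as it did with a replicate block (-0.20, 0.0361) and with a filter of 1 CPM in 6 libraries (-0.26, 0.0446). Of 18 alternative settings only 6 called Hsp90b1 here, library sizes alone among them, and its log2 value ran from -0.49 to -0.10. Within clone 48 it fell by 0.41 from day 0 to day 2 (SE 0.159, adjusted p = 0.0244), a call lost when the WT and SA counts of a replicate number were summed (adjusted p = 0.098), and within clone 66 the log2 difference was 0.05 (adjusted p = 0.82). Some exon bases of Hsp90b1, 632 in all, are also annotated to 3 other gene entries.

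Dnajb9 (ERdj4), a co-chaperone of BiP, target of spliced XBP1 and repressor of IRE1, behaved unlike them. It ran from 3.67 to 10.8 CPM at day 0, from 61.7 to 135 at day 2 and from 18.8 to 42.3 at day 6, and no library of one day overlapped another day. It rose 12.1-fold by day 2 (log2 3.59, SE 0.186, adjusted p = 1.83e-18) and fell by 1.67 on the log2 scale from day 2 to day 6 (SE 0.169, adjusted p = 1.57e-10), so that at day 6 it stood 3.79-fold above day 0. Herpud1, a membrane protein of the ER-associated degradation machinery, had medians of 77.0, 73.3 and 108 CPM. Its day 2 level did not differ detectably from day 0 (log2 -0.04, 95% interval -0.32 to 0.23). The day 6 libraries spread from 49.9 to 219 CPM, and the increase of 1.38-fold over day 0 (adjusted p = 0.00349) was found in 4 of 6 combinations. It was lost without clone 66 replicate 2 (log2 0.26, adjusted p = 0.0848) and with library sizes alone (0.27, 0.0636). Within clone 66 it was 2.09-fold (adjusted p = 7.48e-09), and within clone 48 the log2 difference was -0.13 (adjusted p = 0.382).

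The transcription factors followed 3 different courses. Xbp1, whose spliced form drives ER expansion, was the only one of the 10 to climb at each step without overlap, from 48.7 to 75.9 CPM at day 0 (median 61.0), to 107 to 145 at day 2 (median 134) and 227 to 368 at day 6 (median 276). It rose 2.16-fold by day 2 (log2 1.11, SE 0.066, adjusted p = 8.62e-17) and 2.09-fold more by day 6 (log2 1.07, SE 0.0657, adjusted p = 5.91e-16), in 6 of 6 combinations each time. Atf4, the effector of the integrated stress response, had its peak at day 2. Its libraries lay between 147 and 252 CPM at day 0, between 759 and 974 at day 2 and between 254 and 671 at day 6, again without overlap. That is a 4.19-fold rise (log2 2.07, SE 0.123, adjusted p = 8.87e-17) and then a fall by 1.01 on the log2 scale (SE 0.12, adjusted p = 5.32e-09). Ddit3 (CHOP), a target of ATF4 that promotes cell death and can hold back C/EBP factors, rose from a range of 37.2 to 48.4 CPM to 102 to 276 at day 2, a change of 4.13-fold (log2 2.05, SE 0.177, adjusted p = 1.61e-12). It stayed high at day 6, at 122 to 333 CPM, and the difference of day 6 from day 2 was not called over both clones (log2 0.30, SE 0.173, adjusted p = 0.139). It passed without clone 48 replicate 1 (log2 0.48, adjusted p = 0.0283) and without clone 48 replicate 2 (0.56, 0.00471). These were the only 2 of 18 alternative settings to call it, and the log2 value ran from -0.04 to 0.56. The 186 exon bases that Ddit3 shares with other entries include the antisense end of Mars, and strand was not used in counting. The other entries are Gm4189 and a second entry with the symbol Ddit3, and the Ddit3 entry with the most counts was used.

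Of the ATF4 targets, Trib3, a pseudokinase that binds AKT and ATF4, changed most over the whole course. It ran from 3.65 to 13.6 CPM at day 0, from 42.9 to 117 at day 2 and from 60.0 to 269 at day 6. The increase was 11.9-fold at day 2 (log2 3.58, SE 0.252, adjusted p = 7.95e-15) and 18.6-fold at day 6 (log2 4.22, SE 0.257, adjusted p = 1.81e-16), and no library of days 2 or 6 reached down to day 0. The step from day 2 to day 6 (log2 0.64, adjusted p = 0.0156) was found in 4 of 6 combinations and was lost when any replicate of clone 66 was left out, with adjusted p-values of 0.0812, 0.172 and 0.054, and when the WT and SA counts of a replicate number were summed (0.0992). Chac1, a glutathione-degrading enzyme, had a median of 5.99 CPM at day 0, 43.8 at day 2 and 20.6 at day 6. It rose 6.92-fold by day 2 (log2 2.79, SE 0.241, adjusted p = 1.61e-12) and then fell by 1.18 on the log2 scale (SE 0.231, adjusted p = 3.66e-05), though its day 6 range of 6.23 to 55.6 CPM took in values from the levels of both other days. Asns, which makes asparagine from aspartate and glutamine, lay at 48.5 to 163 CPM, then 437 to 629 and then 106 to 264. It rose 5.45-fold (log2 2.45, SE 0.171, adjusted p = 6.35e-15) and fell by 1.66 on the log2 scale (SE 0.167, adjusted p = 1.26e-10), which left it 1.72-fold above day 0 (adjusted p = 7.51e-05). With the WT and SA counts of a replicate number summed, its log2 difference of day 6 from day 0 was 0.49 in clone 48 (adjusted p = 0.156 by edgeR). In clone 66 it was 1.04 (0.00497). In clone 48 the same differences of Chac1 (0.69, 0.0692) and Hspa5 (0.41, 0.0691) were not called either. There 5 of the 10 were called, beside 43.6% of all genes, and in clone 66 9 were called, beside 44.4%. Compared by their means in the 12 combinations, each centred on its own average in log2 CPM, the closest of the 45 pairs among the 10 genes were Atf4 and Asns, with a root mean square difference of 0.273, followed by Hspa5 and Herpud1 with 0.349.

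The genes around the 10 were grouped into lists of the pathway, none of which holds any of them. Counts of the lists are to be read against the shares of all genes called. These were 35.8% higher and 37.5% lower at day 2 against day 0 and 32.9% and 35.4% at day 6 against day 0. From day 2 to day 6 they were 31.9% and 30.1%. Most genes of the tRNA and amino acid lists rose by day 2 and fell after it, and the ER chaperone list was mixed. Of 20 cytosolic aminoacyl-tRNA synthetases, 19 rose by day 2 and 1 fell, with a median log2 fold change of 1.12 beside -0.02 over all genes, and from day 2 to day 6 none rose and 17 fell. Gars, the glycyl-tRNA synthetase, went from a median of 179 to 651 CPM (3.57-fold, adjusted p = 6.42e-17) and Farsb, a subunit of the phenylalanine enzyme, from 82.2 to 266 CPM (3.37-fold). Rars and Tars then fell 3.41-fold and 2.51-fold by day 6, and their libraries of the 2 days did not overlap. Of 18 ATF4 targets in amino acid synthesis and transport, 15 rose and 2 fell by day 2, and 2 rose and 12 fell from day 2 to day 6. Cth, which makes cysteine from cystathionine, rose 26.1-fold, from 6.49 to 173 CPM, and fell back 3.84-fold. Slc1a5, a glutamine carrier, rose 11.5-fold, and Mthfd2, of mitochondrial folate metabolism, fell 3.15-fold after day 2. Aldh1l2 went on rising, 2.87-fold from day 2 to day 6. Slc38a2, another transporter of the list, went the other way and was 2.09-fold lower at day 2, from 564 to 255 CPM.

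Of the 13 transcription and stress factors known as ATF4 targets, 11 could be tested, of which 9 rose and 2 fell by day 2. Sesn2, an inhibitor of mTORC1 signalling, rose 6.02-fold and Atf3 rose 5.5-fold, while Ndrg1 and Jdp2 fell 5.26-fold and 2.53-fold. At day 6 Ddit4, also an inhibitor of mTORC1, stood 5.4-fold above day 0. Of 11 eIF2alpha kinases, phosphatase subunits and eIF2B subunits, 9 rose by day 2 and 2 fell. The 2 phosphatase subunits led, with Ppp1r15a (GADD34), the inducible one, up 7.53-fold from 13.2 to 91.7 CPM and Ppp1r15b (CReP) up 4.06-fold. The kinases Eif2ak4 (GCN2) and Eif2ak2 (PKR) were 1.96-fold and 1.26-fold lower. From day 2 to day 6, 9 of the 11 fell, Eif2b1 and Eif2b3 2.03-fold and 1.92-fold.

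The UPR sensors and their relatives, with 3 of 10 up and 4 down by day 2, were close to the shares over all genes, 35.8% higher and 37.5% lower. Ern1, which encodes IRE1, rose 1.85-fold and Eif2ak3, which encodes PERK, was 1.45-fold lower, from 37.3 to 25.7 CPM. Of 20 ER chaperones and folding enzymes, 10 rose and 5 fell by day 2, and 6 rose and 6 fell by day 6. The day 6 counts were close to the shares over all genes, 32.9% higher and 35.4% lower. The oxidase Ero1l stood out, rising from 38.2 CPM to 682 at day 2 and 1788 at day 6, or 15.8-fold and 41.3-fold. Pdia4, a disulphide isomerase, rose 2.0-fold by day 2 and fell 1.95-fold after it, whereas Dnajc10 and P4hb were 1.58-fold and 1.48-fold lower at day 2. In ER-associated degradation 7 of 14 rose by day 2, Derl1 3.4-fold, and 3 fell, and by day 6 Edem1 had risen 2.23-fold. Of 16 genes of ER translocation and signal peptide cleavage, 11 rose and 3 fell by day 2, Srprb 2.38-fold and Ssr3 2.24-fold, and 9 fell after it. Of 10 genes of the mitochondrial unfolded protein response, 9 rose and none fell by day 2, among them the chaperonins Hspd1 (7.62-fold, from 227 to 1725 CPM) and Hspe1 (4.65-fold). Both then fell, 3.35-fold and 2.85-fold, while the protease Lonp1 reached 4.87-fold above day 0 at day 6. The cytosolic heat shock genes, 12 of which 11 could be tested, showed 3 up and 2 down by day 2, with Hspb8 1.55-fold higher and Hspa1b 1.77-fold lower.

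**Figure D3:**
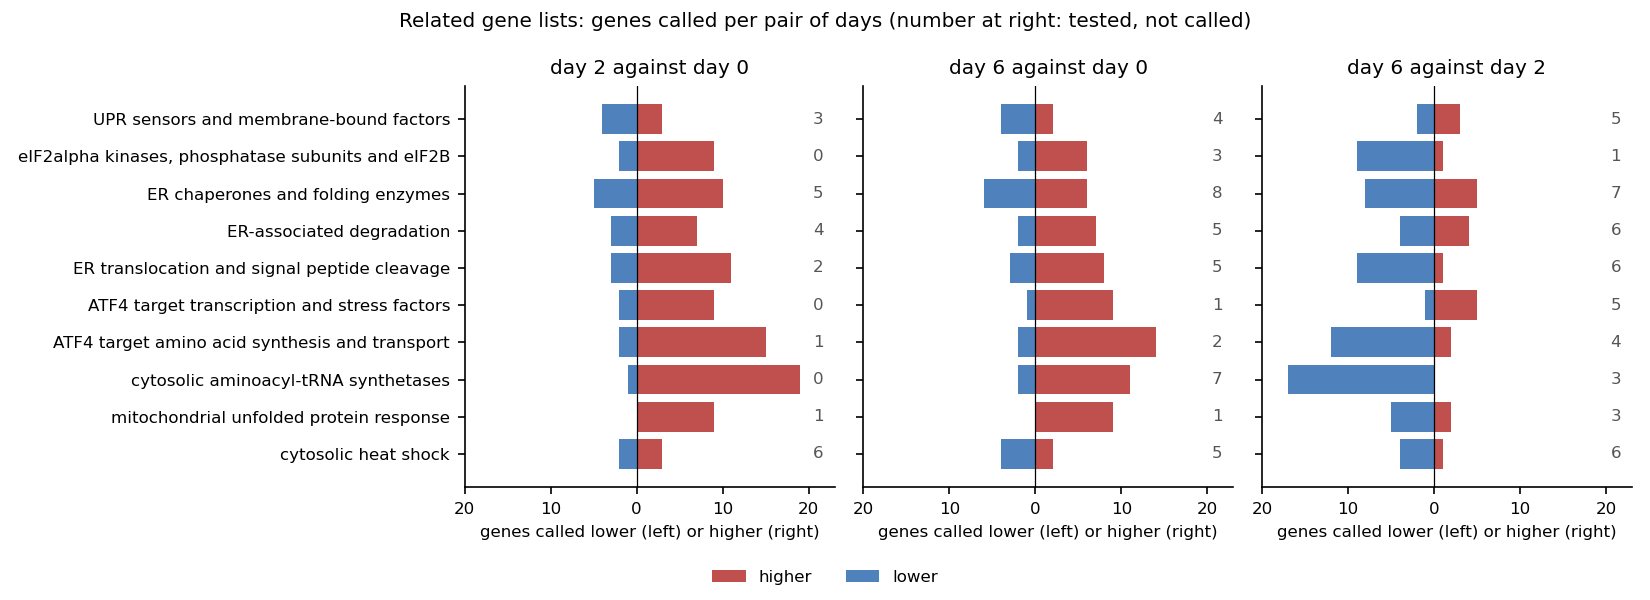
Number of genes of each list called higher (red, right of 0) and lower (blue, left of 0) between days at an adjusted p under 0.05, with the number tested but not called at the right. Aminoacyl-tRNA synthetases go from 19 higher and 1 lower at day 2 to 0 higher and 17 lower from day 2 to day 6.

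The comparison of SA with WT asks whether loss of the phosphorylation site alters transcription during differentiation. None of the 10 genes was called on any day, and 0% of the 16723 genes were called on day 0, 2 or 6 by edgeR. There were 139, 162 and 125 genes at an unadjusted p under 0.05, and none was called by DESeq2. These numbers are far below the share of 0.05 that chance alone would give, so the test is conservative. It takes same-numbered WT and SA libraries, whose deviations had a median correlation of 0.827, as separate. P-values and intervals for SA against WT are therefore likely too large and too wide. Within the list no gene had an unadjusted p under 0.05 on any day. The log2 differences were at most 0.13 in size, such as -0.13 for Trib3 at day 0 (95% interval -0.82 to 0.55), 0.13 for Hsp90b1 at day 2 (-0.20 to 0.45) and -0.10 for Atf4 at day 6 (-0.44 to 0.24). At day 2 WT libraries of Atf4 lay between 786 and 974 CPM and SA libraries between 759 and 949, and for Asns the ranges were 455 to 629 and 437 to 624 CPM. The groups overlapped for all 10 genes on all 3 days. At day 2 Hsp90b1 was higher in SA in 6 of 6 pairs of the same clone and replicate number and Herpud1 was lower in 6 of 6, by 0.13 on the log2 scale each, with unadjusted p-values of 0.439 and 0.506. These p-values take no account of the pairs, and the share of all genes with 6 of 6 pairs one way is not given. The intervals were narrowest for Xbp1, which at day 6 spanned -0.22 to 0.15, and widest for Trib3, which at day 0 spanned ratios from 0.568 to 1.47, so that changes within such bounds were not detectable. Within the clones no gene was called either, but at day 6 Hspa5, Herpud1, Ddit3, Atf4 and Chac1 were higher in SA in 3 of 3 pairs of clone 48 and lower in 3 of 3 pairs of clone 66. For Ddit3 the log2 difference was 0.38 (95% interval 0.02 to 0.75, unadjusted p = 0.0407) in clone 48 and -0.34 (-0.70 to 0.03, unadjusted p = 0.067) in clone 66, both with an adjusted p of 1.0 by edgeR. The difference between the clones in this respect was not tested. The share of all genes with such opposite signs is not given, so the number among the 10 has no background to be read against. With the pairs as blocks within each day, 1 gene in all was called at day 2 and none of the 10 on any day. For the course over time, 0% of genes were called for genotype by time in any of the 3 pairs of days, with 144, 128 and 153 genes at an unadjusted p under 0.05, and the largest difference among the 10 was 0.21 for Hsp90b1 between days 0 and 2 (95% interval -0.26 to 0.67).

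**Figure D4:**
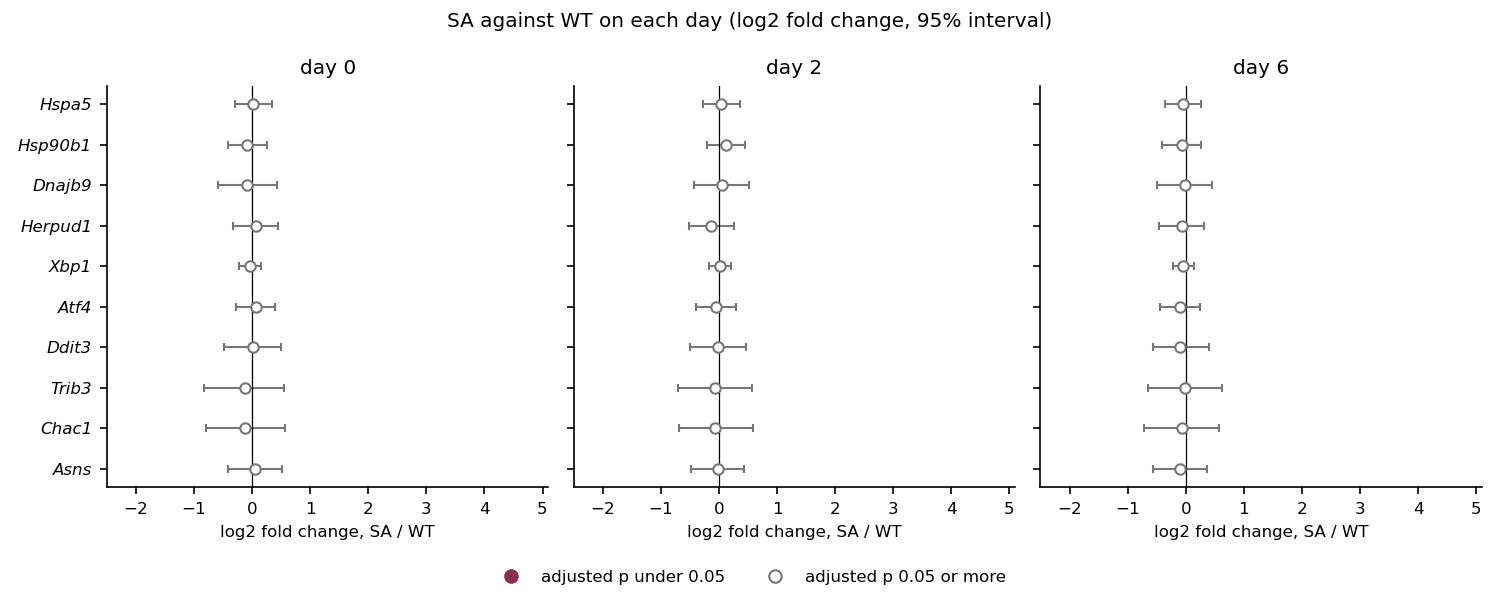
Log2 difference of SA from WT for each gene at days 0, 2 and 6, with 95% intervals over 36 libraries, on the same axis as the plot of changes between days. All points are open and lie within 0.13 of 0.

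More of these genes differed between the clones at day 6 than before. Clone 66 differed from clone 48 in 1 of the 10 at day 0, in 3 at day 2 and in 8 at day 6, beside 22.7%, 28.6% and 25.0% of the 17589 genes tested, and all 8 of day 6 were higher in clone 66, beside 13.5% of all genes called higher and 11.5% lower. The median log2 difference of the 10 went from 0.21 and 0.17 to 0.86, and that of all genes was 0.01, -0.02 and 0.01. Within a clone and day, WT and SA libraries with the same number deviated together, so that the 6 libraries of a clone and day are 3 correlated pairs, and p-values that take them as 6 are too small. With the counts of each pair summed (3 sums for each clone and day, a choice made after seeing the data), 0, 3 and 7 of the 10 genes were called on days 0, 2 and 6, beside 10.7%, 15.6% and 12.2% of the 19265 genes then tested. The calls lost were those of Herpud1 at day 0 (adjusted p = 0.157) and Xbp1 at day 6 (0.138). Chac1 differed most. Its 6 libraries of clone 48 at day 6 ran from 6.23 to 13.0 CPM (median 8.14) and those of clone 66 from 28.1 to 55.6 (median 36.2), a difference of 4.62-fold (log2 2.21, SE 0.224, adjusted p = 9.15e-09). At day 2 the ranges for Chac1 were 33.0 to 45.1 and 41.1 to 57.3 CPM, and the difference was not called (log2 0.32, adjusted p = 0.272). Herpud1 was 2.89-fold higher in clone 66 at day 6, with libraries from 135 to 219 CPM against 49.9 to 81.6 (log2 1.53, SE 0.121, adjusted p = 6.91e-11). It was also higher at day 2 (1.45-fold, adjusted p = 0.000908) and at day 0 (1.27-fold, adjusted p = 0.0378). The day 0 call was lost without clone 48 replicates 1 or 2 or clone 66 replicates 1 or 3, with adjusted p-values from 0.061 to 0.212. On that day 5 of the 10 were called without clone 48 replicate 3, and the share of all genes called in that fit is not given.

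Trib3 (2.29-fold), Atf4 (1.86-fold), Asns (1.82-fold), Ddit3 (1.79-fold), Hspa5 (1.71-fold) and Xbp1 (1.25-fold) made up the rest of the 8. The clones did not overlap at day 6 for Trib3 (60.0 to 124 against 130 to 269 CPM), Atf4 (254 to 385 against 396 to 671) and Asns (106 to 151 against 158 to 264), and overlapped slightly for Hspa5, where the highest library of clone 48, at 1586 CPM, lay above the lowest of clone 66 at 1581. The share of all genes whose clones did not overlap is not given, so this is a description of these genes alone. The call of Xbp1 was lost without clone 48 replicate 2 (adjusted p = 0.0938) and without clone 66 replicate 1 (0.164). Hsp90b1 and Dnajb9 were not called at day 6 (log2 0.23 and 0.43, adjusted p = 0.333 and 0.101). At day 2, 2 other genes than Herpud1 were called. Dnajb9 was 1.79-fold higher in clone 66, with 94.0 to 135 CPM against 61.7 to 70.0 (adjusted p = 0.00103), while Ddit3 was lower, with 102 to 153 CPM against 186 to 276 (log2 -0.84, SE 0.127, adjusted p = 6.55e-06).

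**Figure D5:**
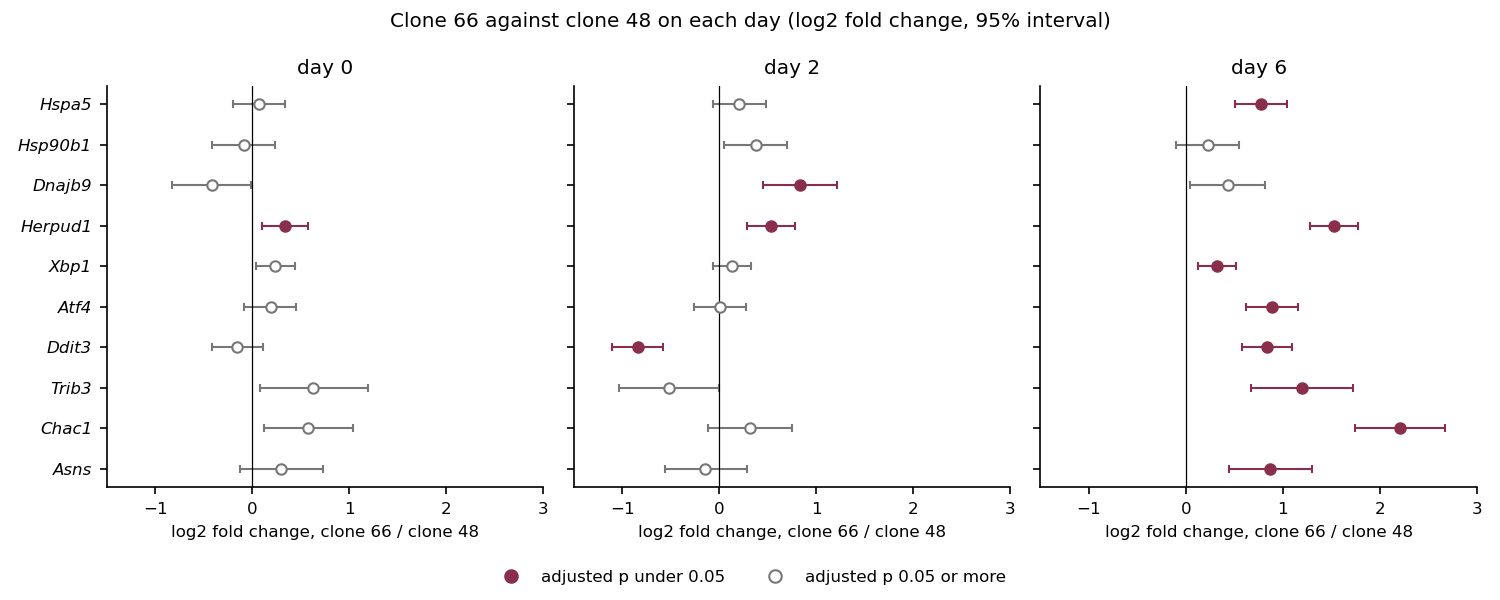
Log2 difference of clone 66 from clone 48 for each gene at days 0, 2 and 6, averaged over both genotypes, with 95% intervals over 36 libraries. Filled points have an adjusted p under 0.05. One point is filled at day 0, 3 at day 2 with Ddit3 left of 0, and 8 at day 6, all right of 0.

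The change over time differed between the clones by a test of that difference in 2 of the 10 genes between days 0 and 2, in 5 between days 0 and 6 and in 6 between days 2 and 6, beside 6.22%, 3.62% and 5.81% of all genes. With the pairs summed, these numbers were 0, 1 and 3, beside 1.36%, 0.784% and 1.25% of all genes. The differences that were called with the pairs summed were those of Herpud1 between days 0 and 6 (1.15, adjusted p = 0.0166) and of Ddit3 (1.65, 0.0012), Chac1 (1.85, 0.0326) and Herpud1 (0.97, 0.0394) between days 2 and 6. Ddit3 went opposite ways after day 2. In clone 48 it fell by 0.58 on the log2 scale (SE 0.127, adjusted p = 0.000296), from a median of 218 to 150 CPM, and in clone 66 it rose by 1.10 (SE 0.128, adjusted p = 2.11e-08), from 122 to 272 CPM, each in 3 of 3 replicate numbers. The difference between these changes was 1.69 (SE 0.18, adjusted p = 1.98e-07). Trib3 rose 2.84-fold after day 2 in clone 66 and had a log2 change of -0.21 (adjusted p = 0.527) in clone 48, a difference of 1.71 (adjusted p = 0.00247, and 0.105 with the pairs summed). Herpud1 rose 1.94-fold in clone 66 and had a log2 change of -0.04 in clone 48, a difference of 1.00 (adjusted p = 0.000225). Of the genes that came down, Atf4 fell by 1.48 in clone 48 and by 0.60 in clone 66, Asns by 2.18 and 1.18, and Chac1 by 2.24 in clone 48 against a log2 change of -0.35 (adjusted p = 0.174) in clone 66, and with the pairs summed the differences of Atf4 and Asns were not called (adjusted p = 0.116 and 0.333). Between days 0 and 2, Dnajb9 rose 8.14-fold in clone 48 and 19.4-fold in clone 66 (difference 1.26, adjusted p = 0.00363, and 0.101 with the pairs summed), and Ddit3 5.24-fold and 3.25-fold (difference -0.69, adjusted p = 0.016, and 0.219). Several of these calls rest on few libraries. With 1 replicate left out, 541 to 1248 of all genes were called between days 0 and 2. The numbers were 317 to 699 between days 0 and 6 and 522 to 1391 between days 2 and 6. Between days 0 and 2 the number called among the 10 was 1 without clone 48 replicates 1 or 2 or clone 66 replicates 1 or 3, and 3 without clone 66 replicate 2. Between days 0 and 6 it was 3 without clone 48 replicates 2 or 3 or clone 66 replicate 1, and 2 without clone 66 replicate 2. Between days 2 and 6 it was 3 without clone 48 replicate 2. Herpud1, Ddit3 and Chac1 were called between days 2 and 6 whichever replicate of a clone was left out.

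Other measures moved with the clones at day 6. The adipocyte markers summed to 6722 to 8187 CPM in clone 66 and 8356 to 10834 in clone 48, without overlap, although none of the 7 was called singly. The brown markers summed to 11.4 to 25.6 and 22.7 to 32.9 CPM, and all 3 of the 6 that could be tested were lower in clone 66. The pre-adipocyte markers summed to 64.3 to 168 CPM in clone 66 and 42.1 to 110 in clone 48, with 1 of 4 called higher and 3 lower in clone 66. The mitochondrial share was 2.35% to 9.09% in clone 66 (median 5.78%) and 1.96% to 6.71% in clone 48 (median 2.36%). Their part in the differences of the stress genes was not tested. Without the 7 libraries over 4% mitochondrial counts (a choice made after seeing the data), clone 66 at day 6 was left with the WT and SA libraries of replicate 1, a correlated pair that stands for 1 replicate number, so this says little about the mitochondrial share. In that fit 6 of the 10 genes were called in clone 66 against clone 48, while Trib3 (log2 0.90, adjusted p = 0.0913) and Asns (0.95, 0.059) were not. Without the 7 libraries the day 6 increases of Herpud1 and the step of Trib3 after day 2 were lost, with log2 values of 0.20 for Herpud1 against day 0 (adjusted p = 0.212), 0.26 for Herpud1 against day 2 (0.129) and 0.15 for Trib3 against day 2 (0.638). Of the lists, 13 of 18 ATF4 targets in amino acid supply, 14 of 20 aminoacyl-tRNA synthetases, 11 of 20 ER chaperones and folding enzymes, and 6 of 11 other ATF4 target factors were higher in clone 66 at day 6, beside 13.5% of all genes, and none of these 4 lists had a gene called lower, beside 11.5%. This was not particular to them. ER-associated degradation had 5 of 14 higher, ER translocation 4 of 16, the UPR sensors 3 of 10 and the eIF2alpha list 1 of 11, each with 0 lower. The cytosolic heat shock genes had 1 higher and 3 lower.

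The genes whose course was most like that of 2 of the members were sought among 9726 genes whose log2 CPM averaged 3 or more, by the root mean square difference of centred log2 means over the 12 combinations, which share their libraries. For Hspa5, whose own means varied by 0.392 around their average, these were Plpp5 (0.116), Ccdc130 (0.118) and Tmem248 (0.128). For Asns, with a variation of 1.07, they were Hspe1 (0.219), Slc16a6 (0.225) and Lrrc59 (0.235).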

How the data were processed

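RNA-seq counts per gene were deposited as 1 table per library for 36 libraries. The authors prepared libraries from total RNA with the TruSeq Stranded Total RNA Gold kit, sequenced them on an Illumina NextSeq instrument, aligned read pairs with STAR 2.7.0d to GRCm38.p6 and counted them over exons of GENCODE M21 with featureCounts 1.6.2, without using strand. The deposited values are raw, whole-number counts. Groups were taken from the sample labels.

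Counts were analysed with edgeR 4.0.16 in R 4.3.3. Genes were filtered with filterByExpr, library sizes were scaled by TMM, and the quasi-likelihood test was applied with Benjamini-Hochberg adjustment over all genes tested, at an adjusted p under 0.05. Days and genotypes were compared in a model with 1 term per genotype and day plus clone (16723 genes tested), and clones in a model with 1 term per clone, genotype and day (17589 genes tested), both over all 36 libraries. SEs were taken from the fold change and its F statistic. CPM values are TMM-scaled, and RPKM divides them by exon length. On simulated data, 87 of 100 genes changed 2-fold and 48 of 100 changed 1.5-fold were recovered for SA against WT at day 2 among 16078 genes. The simulated libraries were drawn independently, with no pairing and no differences between clones or days other than the planted ones. The real libraries have both, so these numbers check the code and do not give the recovery in the real data.

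The members, lists and tests were chosen with earlier results of these data known. Named genes of a list were, for each pair of days, up to 2 with the largest increase and up to 2 with the largest decrease among called genes whose log2 CPM averaged 3 or more and that moved the same way in all 6 combinations of clone and replicate number. A gene named by this rule is not reported here. Synthetase Mars1 was found under its older name Mars.

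No library was a copy of another, since replicates differed by a chi-square of at least 12.0 per degree of freedom. Replicate numbers paired the WT and SA libraries of a day: over 9381 genes, the deviations of all 18 same-numbered pairs correlated, from 0.176 to 0.93 (median 0.827). Alternatives were DESeq2 1.42.0, edgeR's version 4 test, other size factors, other filters, other terms or fewer days in the model, replicate blocks, each replicate left out in turn, the shallow library left out and, added after seeing the data, the libraries over 4% mitochondrial counts left out and the WT and SA counts of a replicate number summed. The sources differ on whether the libraries of a group come from separate cultures.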

Additional observations from a re-analysis of the deposited data

Results flagged for a closer look

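The change over time of several genes differed between clone 66 and clone 48 by the test of that difference (edgeR, clone 66 minus clone 48, log2 scale). Between days 0 and 2 these were Dnajb9 (1.26, adjusted p = 0.00363) and Ddit3 (-0.69, adjusted p = 0.016). Between days 0 and 6 they were Chac1 (1.63, 0.0017), Herpud1 (1.19, 2.66e-05), Ddit3 (1.00, 0.000767), Hspa5 (0.71, 0.0249) and Atf4 (0.71, 0.0251). Between days 2 and 6 they were Chac1 (1.88, 0.000127), Trib3 (1.71, 0.00247), Ddit3 (1.69, 1.98e-07), Herpud1 (1.00, 0.000225), Asns (1.00, 0.0383) and Atf4 (0.88, 0.00259). With the correlated WT and SA libraries of a replicate number summed, Herpud1 between days 0 and 6 (adjusted p = 0.0166) and Ddit3, Chac1 and Herpud1 between days 2 and 6 (0.0012, 0.0326 and 0.0394) were called, and the others were not. Clone and library pool cannot be told apart in these differences.

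At day 6 the difference of SA from WT had opposite signs in the clones for 5 genes, higher in all 3 pairs of clone 48 and lower in all 3 of clone 66. The share of all genes with such signs is not given, and the 5 genes were read in the same libraries. The log2 difference of clone 66 minus that of clone 48 was -0.72 for Ddit3, -0.66 for Chac1, -0.50 for Hspa5, -0.44 for Herpud1 and -0.37 for Atf4, and was not tested. In none of 60 sets, each of 1 gene in the 6 libraries of a genotype and day, did 1 library stand apart by Dixon's criterion. Chance alone passes it in about 5% of sets. Each set pools both clones, so a difference between clones widens its range and can hide a library that stands apart.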

How the results depend on the processing

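Over 20 alternative settings, of which 2 were added after seeing the data, no value of the 10 genes that was called in either fit reversed. For pairs of days, 516 values kept their side of the threshold, 15 passed it newly and 9 lost it. For clones on a day these numbers were 421, 16 and 13, and for clone by time 433, 12 and 35. With replicate pairs as a replicate block within each day, 1 gene was called for SA against WT at day 2 in place of 0, and the block changed no other genotype call. Across days the numbers paired the libraries in part. Of 36 same-numbered correlations 27 were over 0.1, and the lowest was -0.325. Medians were 0.454 for the same and -0.269 for different numbers, and the main fits took no account of this. With a replicate block over days, 2166, 1363 and 2082 genes were called for clone by time between days 0 and 2, 0 and 6, and 2 and 6. The main fit called 1094, 637 and 1022. With the block, 4 of the 10 genes were called between days 0 and 2. No block could be fitted for clone against clone, since each lies in 1 clone. With the WT and SA counts of a replicate number summed instead, 2070, 2999 and 2358 genes were called for clones at days 0, 2 and 6, with 0 of the 10 at day 0, and 262, 151 and 240 for clone by time between days 0 and 2, 0 and 6, and 2 and 6, with 0, 1 and 3 of the 10. For clones at day 0, 2 of the 10 genes were called by DESeq2, with library sizes alone and without a filter, and 3 without the libraries over 4% mitochondrial counts. The share of all genes called in these fits is not given. Without those libraries 2495 genes were called for clones at day 6, and 326 and 579 for clone by time between days 0 and 6 and days 2 and 6, with fewer libraries in the fit. Leaving out 1 replicate gave 0 to 5 of the 10 genes for clones at day 0, again with no share of all genes given. For clone by time it gave 541 to 1248 genes and 1 to 3 of the 10 between days 0 and 2, 317 to 699 and 2 to 5 between days 0 and 6, and 522 to 1391 and 3 to 7 between days 2 and 6. The cause of these changes was not tested otherwise. Between days 2 and 6, library sizes alone moved the share of higher calls from 51.4% to 57.7%. At the lowest levels, Trib3 and Chac1 at day 0, precision was limited by counts as low as 45 and 54.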
